A study of Mus musculus with 12 samples.

Results

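The heat shock chaperones described here are 10 genes of the cytosolic and mitochondrial protein folding machinery, Hspa4l, Hspa4, Hsph1, Hspa8, Dnaja1, Dnajb1, Hsp90aa1, Hsp90ab1, Hspd1 and Hspe1. Their mRNA was read from every array probe set whose only gene symbol is that of a member. This gave 16 probe sets for 9 of the 10 genes, among 19938 genes with such a probe set and 23410 probe sets tested, and Hsp90ab1 was not analysed here. Of these genes, 4 had a single probe set and 5 had several, all of which are given.
The cells were EL-4, a mouse T lymphoma line, so that each group is one line in culture and not primary T cells. A pretreatment of 30 min with DMSO, either alone or carrying 10 μg/ml of cycloheximide (CHX), an inhibitor of translation, came first. They then received phorbol 12-myristate 13-acetate at 10 ng/ml together with ionomycin at 1 μM (P/I) for 4 h, which mimics signals downstream of the T cell receptor, or were left unstimulated. The 4 groups were CHX-treated P/I-stimulated (CHX P/I), CHX-treated unstimulated, DMSO-treated P/I-stimulated (DMSO P/I) and DMSO-treated unstimulated cells, with 3 biological replicates each, hence 12 Affymetrix Mouse Gene 1.0ST arrays. The total time that CHX-treated unstimulated cells spent with the inhibitor is not given in the sources used here, and it may have been shorter than in CHX P/I cells. The P/I effect in CHX-treated cells below is the difference between CHX P/I and CHX-treated unstimulated cells. In this difference, and in the interaction of P/I and CHX, P/I cannot be told apart from a longer time with CHX. Values are log2 robust multichip average (RMA) values, and a probe set was called when the Benjamini-Hochberg adjusted p from limma was under 0.1 over all probe sets tested.
HSP70 proteins bind and release unfolded stretches of other proteins in a cycle driven by ATP. J proteins such as Dnaja1 and Dnajb1 bring them clients and start ATP hydrolysis, and the HSP110 proteins Hspa4, Hspa4l and Hsph1 exchange the nucleotide so that the client is let go. HSP90 acts later on kinases and receptors, many of them signalling proteins of T cells, and Hspd1 with its lid Hspe1 forms the folding chamber of mitochondria. Several of these genes are targets of heat shock factor 1, which binds alternating inverted repeats of GAA, the heat shock element, and is activated when unfolded proteins accumulate.

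The promoter windows of 7 of the members are in the RefSeq table used here (GRCm38.p6, 12 windows, each running from 250 bases before to 50 bases after a transcription start). They were searched on both strands for 3 alternating units, namely GAA, TTC and GAA, or TTC, GAA and TTC, with any 2 bases between units (these spellings are reverse complements of each other). A match was found in 198 of 32851 windows of the same length over all genes (0.603%), and in 4 of the 12 windows, which belong to Hspd1, Hspe1 and Hsph1. Hspd1 and Hspe1 are transcribed away from each other from one shared stretch of chromosome 1. A single run of 18 bases, in which 2 matches overlap, lies 89 to 72 bases before the Hspe1 start. It is also in the Hspd1 window at chr1:55087883-55088182, while the other Hspd1 window, chr1:55088194-55088493, has no match. In Hsph1 the match lies 16 to 28 bases after the more downstream of its annotated starts, and both its overlapping windows hold this same match. The 4 windows are thus not 4 separate stretches of sequence. No match was found in the windows of Hspa4l, Hspa4, Dnaja1 and Dnajb1. A match of letters is not a binding site, and its absence says only that these letters are not in the window. The windows printed here are that of Hspe1, with the run it shares with Hspd1, and that of the more downstream Hsph1 start, which carry matches (in capitals). The third is that of Hspa4l, the member with the largest difference between groups, which carries none.
Hspe1, chr1:55087898-55088197, plus strand: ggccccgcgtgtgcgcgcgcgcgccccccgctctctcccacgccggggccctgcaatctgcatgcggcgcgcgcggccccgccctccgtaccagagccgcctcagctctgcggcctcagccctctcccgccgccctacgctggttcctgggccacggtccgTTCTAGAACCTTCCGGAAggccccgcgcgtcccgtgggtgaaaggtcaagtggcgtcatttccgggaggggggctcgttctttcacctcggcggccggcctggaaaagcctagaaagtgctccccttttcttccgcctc
Hsph1, chr5:149636266-149636565, minus strand: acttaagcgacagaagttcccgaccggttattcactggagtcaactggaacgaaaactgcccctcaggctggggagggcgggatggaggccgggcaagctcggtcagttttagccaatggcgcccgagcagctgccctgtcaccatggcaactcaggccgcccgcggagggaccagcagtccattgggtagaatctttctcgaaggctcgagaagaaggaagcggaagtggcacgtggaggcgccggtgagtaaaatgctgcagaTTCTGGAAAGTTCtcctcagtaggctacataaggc
Hspa4l, chr3:40745363-40745662, plus strand: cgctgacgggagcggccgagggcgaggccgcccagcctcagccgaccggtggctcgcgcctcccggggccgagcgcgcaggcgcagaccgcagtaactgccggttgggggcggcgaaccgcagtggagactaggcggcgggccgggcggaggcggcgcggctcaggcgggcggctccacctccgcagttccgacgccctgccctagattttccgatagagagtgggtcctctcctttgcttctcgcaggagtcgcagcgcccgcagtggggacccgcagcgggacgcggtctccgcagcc

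By list medians, markers of T cells were well above those of other lineages. The 6 measured T cell markers had medians of log2 9.67 to 9.74 over the 4 groups, with Cd3g between 12.1 and 12.6, while the medians of the B cell, myeloid, and erythroid and fibroblast lists lay between 4.7 and 6.05. Single markers lay closer: the lowest T cell marker of each group had a mean of 8.19 to 8.24, and the B cell marker Cd79b had group means of 6.5 to 7.44. Among the myeloid genes, Fcgr1 had a mean of 6.55 in CHX P/I cells and of 5.17 in CHX-treated unstimulated, 5.22 in DMSO P/I and 5.35 in DMSO-treated unstimulated cells, and was called higher in CHX P/I than in DMSO P/I cells (2.52-fold, limma adjusted p = 0.00782). With P/I in DMSO-treated cells the B cell marker Cd79b was 1.92-fold lower (adjusted p = 0.000343), the B cell kinase Blk 1.74-fold higher (0.0193), the fibroblast marker Pdgfra 1.94-fold higher (0.000235), and the T cell markers Cd3e and Cd3g 1.26-fold and 1.41-fold lower (0.0271 and 0.000578). In CHX P/I against DMSO P/I cells, Cd79b (1.45-fold), Cd3e (1.37-fold) and Cd3g (1.14-fold) were called higher, and Blk (1.83-fold), Pdgfra (1.81-fold) and Cd2 (1.66-fold) lower. The part of these markers in the results was not tested. Within groups, the correlation between arrays was 0.983 to 0.994. The arrays numbered replicate 1 stood apart for several chaperones. Replicate 1 gave the highest value in all 4 groups for 7 of the 16 probe sets (43.8%), namely every probe set of Hsp90aa1, Hspd1 and Hspe1, and did so for 11.7% of all probe sets tested. The probe sets of each of these 3 genes followed each other closely. Root mean square distances between their centred values over the 12 arrays were log2 0.032 to 0.075. They thus do not count as 7 separate results. On average over the groups, replicate 1 lay above the group mean by log2 0.47 and 0.49 for the probe sets of Hspe1, by 0.36 and 0.45 for Hspd1, by 0.36 for Hsph1 and by 0.21 to 0.27 for Hsp90aa1, whereas it lay below the group mean for Hspa4l (-0.16) and Dnajb1 (-0.28). What sets these arrays apart was not tested.

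**Figure D1:**
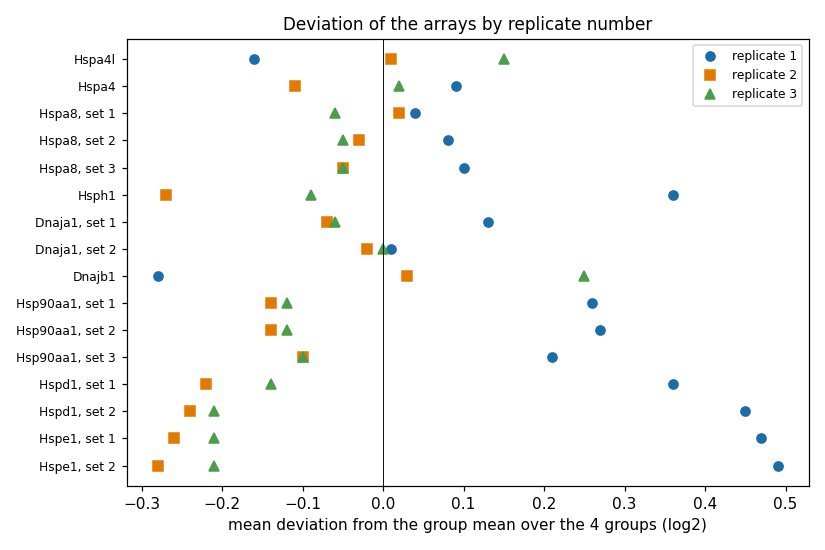
Mean deviation of each replicate number from the group mean, averaged over the 4 groups (log2), for the 16 probe sets. Replicate 1 reaches 0.49 above the mean for Hspe1 and lies 0.28 below it for Dnajb1.

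Of the HSP110 proteins, Hspa4l had the largest response of all members. Its mRNA was induced by P/I and was higher still when P/I was given with CHX, while CHX alone left it near the level of unstimulated cells. The RMA values of Hspa4l were 9.5, 8.77 and 9.4 in CHX P/I cells, 6.1, 6.47 and 6.46 in CHX-treated unstimulated cells, 7.62, 8.16 and 8.09 in DMSO P/I cells, and 5.96, 6.44 and 6.45 in DMSO-treated unstimulated cells. Its mean of 6.28 in the last group was at percentile 55.6 of all probe sets tested. The other member probe sets were at percentiles 76.4 to 99.7 there. The part of this low starting level in its fold changes was not tested. The CHX P/I arrays were all above the DMSO P/I arrays, and both lay above every unstimulated array. P/I raised Hspa4l 3.19-fold in DMSO-treated cells (log2 difference 1.675, SE 0.21, limma adjusted p = 0.000237). CHX P/I cells had 7.36-fold more of it than CHX-treated unstimulated cells (2.88, SE 0.21, adjusted p = 4.22e-06). During P/I, CHX-treated cells had 2.40-fold more Hspa4l mRNA than DMSO-treated cells (adjusted p = 0.00111). The log2 effect of P/I was larger with CHX than without it by 1.205 (SE 0.30, adjusted p = 0.0263 for the interaction, limma). The interaction was 1.16 and no longer called without the replicate 3 arrays (adjusted p = 0.31). Without the replicate 1 arrays it was 0.94 (adjusted p = 0.0208) and the effect of CHX during P/I was 0.96 (adjusted p = 0.00124). In unstimulated cells the difference between CHX and DMSO was 0.06, with a 95% interval of -0.41 to 0.53.
Hspa4, a close relative expressed in most cells, moved little. Its values were 10.99, 10.96 and 11.11 in CHX P/I cells, 10.98, 10.68 and 10.75 in CHX-treated unstimulated cells, 10.82, 10.62 and 10.75 in DMSO P/I cells and 10.68, 10.4 and 10.55 in DMSO-treated unstimulated cells. CHX P/I cells had 1.22-fold more Hspa4 mRNA than DMSO P/I cells (limma adjusted p = 0.0729), a call lost without the arrays of replicate 2 (adjusted p = 0.261) or 3 (0.457) and also when any 1 of 5 arrays was left out, namely each CHX P/I array and DMSO P/I replicates 2 and 3 (adjusted p = 0.105 to 0.232). Against DMSO-treated unstimulated cells, Hspa4 was 1.39-fold higher in CHX P/I cells (adjusted p = 0.0065, or 0.181 without the replicate 3 arrays). The P/I effect on Hspa4 was 0.19 in DMSO-treated cells (adjusted p = 0.329) and 0.22 in CHX-treated cells (adjusted p = 0.207). The latter became a call without CHX-treated unstimulated replicate 1 (adjusted p = 0.0908) and without all replicate 1 arrays (0.32, adjusted p = 0.048). In unstimulated cells the difference between CHX and DMSO was 0.26 for Hspa4 (adjusted p = 0.702), and the interaction was 0.03 (adjusted p = 0.935).
Hsph1, the stress-inducible HSP110, was higher with P/I in DMSO-treated cells. Its values were 11.15, 10.74 and 10.9 in CHX P/I cells, 10.92, 9.98 and 10.23 in CHX-treated unstimulated cells, 11.22, 10.94 and 11.24 in DMSO P/I cells, and 10.88, 9.95 and 9.98 in DMSO-treated unstimulated cells. In both unstimulated groups replicate 1 was far above the other two arrays, and in DMSO-treated unstimulated cells it was just below the lowest DMSO P/I array. P/I raised Hsph1 1.82-fold in DMSO-treated cells (log2 difference 0.87, SE 0.27, limma adjusted p = 0.0523). With the 4 arrays of one replicate number left out it was 1.13 without replicate 1 (adjusted p = 0.000106), 0.80 without replicate 2 (0.26) and 0.67 without replicate 3 (0.528). The call with all arrays was lost without DMSO P/I replicate 1 (adjusted p = 0.113) or 3 (0.157) and without DMSO-treated unstimulated replicate 2 (0.202) or 3 (0.192). In CHX-treated cells the P/I effect on Hsph1 was 0.56 (adjusted p = 0.206), and it became a call without CHX-treated unstimulated replicate 1 (0.83, adjusted p = 0.0485) or DMSO-treated unstimulated replicate 1 (adjusted p = 0.0932). Without all arrays of replicate 1, it was 0.72 (adjusted p = 0.00187). CHX P/I cells exceeded DMSO-treated unstimulated cells by 0.66 for Hsph1 (adjusted p = 0.122), by 0.97 without DMSO-treated unstimulated replicate 1 (adjusted p = 0.0134) and with an adjusted p = 0.0634 without CHX-treated unstimulated replicate 1. It was 0.86 (adjusted p = 0.000518) without all replicate 1 arrays. CHX P/I and DMSO P/I cells differed by -0.20 for Hsph1 (95% interval -0.79 to 0.38), and the interaction was -0.31 (adjusted p = 0.706).

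**Figure D2:**
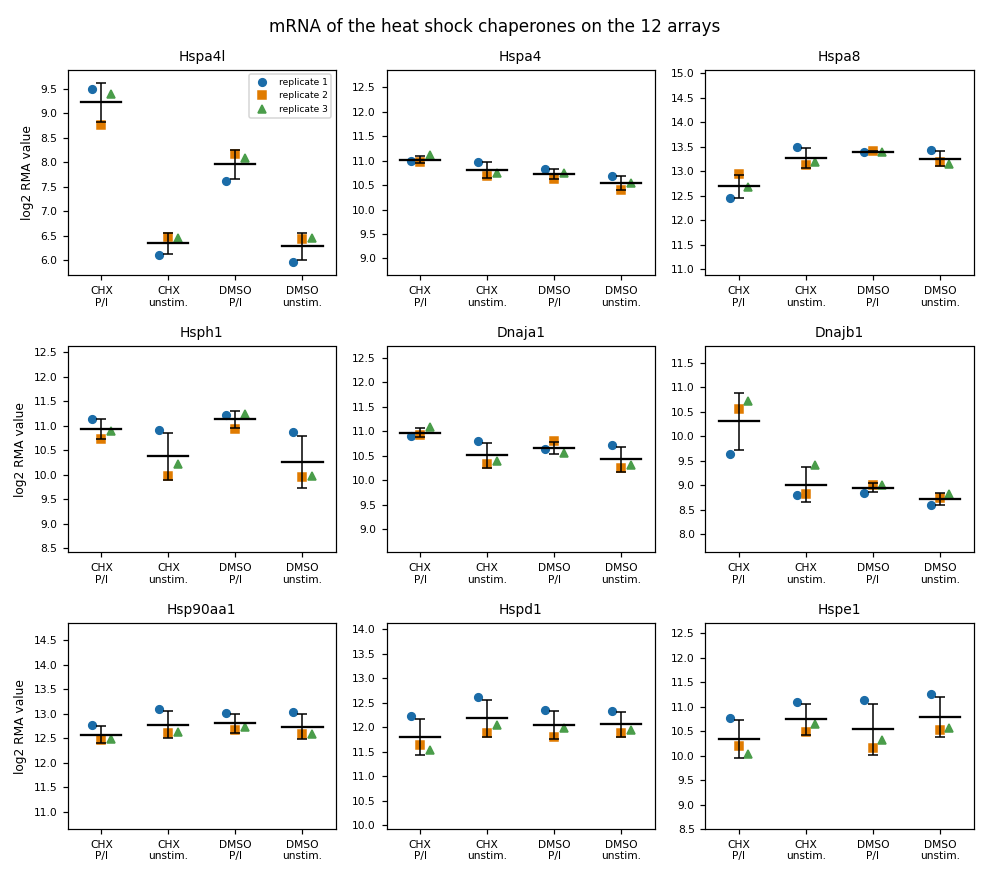
Log2 RMA value of the 9 chaperone genes (probe set with the highest mean) on each of the 12 arrays, by group. Symbols mark the replicate number, the thick bar is the group mean and the whisker 1 SD (n = 3), and every panel spans the same log2 range. Hspa4l and Dnajb1 are highest in CHX P/I cells (means 9.22 and 10.31), where Hspa8 is lowest (12.69).

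Hspa8, the constitutive cytosolic HSP70 also called HSC70, was lower only in CHX P/I cells. Its first probe set read 12.46, 12.94 and 12.67 in CHX P/I cells, 13.5, 13.13 and 13.18 in CHX-treated unstimulated cells, 13.39, 13.41 and 13.39 in DMSO P/I cells and 13.43, 13.19 and 13.15 in DMSO-treated unstimulated cells. Every CHX P/I array lay below every array of the other groups. Compared with DMSO P/I cells, Hspa8 was 1.63-fold, 1.76-fold and 1.81-fold lower in CHX P/I cells by its 3 probe sets (limma adjusted p = 0.00228, 0.000967 and 0.00078). CHX P/I cells were also 1.49-fold, 1.59-fold and 1.61-fold lower than CHX-treated unstimulated cells (adjusted p = 0.0097, 0.00451 and 0.00419). Without the replicate 1 arrays these log2 differences shrank to -0.35, -0.43 and -0.46 (adjusted p = 0.0362, 0.00574 and 0.00344), and without the replicate 3 arrays the first lost its call (adjusted p = 0.146). In DMSO-treated cells the P/I effect was 0.14, 0.195 and 0.22, with adjusted p from 0.392 to 0.619. Without the replicate 1 arrays, probe sets 2 and 3 were called higher there (0.29 and 0.325, adjusted p = 0.0458 and 0.0243). Set against each other, these P/I effects with and without CHX differed by -0.72, -0.86 and -0.91 on the log2 scale (interaction, adjusted p = 0.032, 0.014 and 0.0117), and none of these was called without the replicate 3 arrays (adjusted p = 0.347, 0.226 and 0.2). The 3 probe sets followed each other closely, with root mean square distances of 0.03 to 0.08 between their centred values over the 12 arrays, so they may read the same transcripts or near-identical copies and do not count as 3 results.

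The J proteins were highest in CHX P/I cells. Dnajb1, the stress-inducible HSP40, was at 9.65, 10.55 and 10.72 in CHX P/I cells, 8.8, 8.83 and 9.42 in CHX-treated unstimulated cells, 8.85, 9 and 9.01 in DMSO P/I cells and 8.59, 8.75 and 8.83 in DMSO-treated unstimulated cells. All CHX P/I arrays were above all others, with replicate 1 lowest in each group. During P/I, CHX-treated cells had 2.55-fold more Dnajb1 mRNA than DMSO-treated cells (log2 difference 1.35, SE 0.24, limma adjusted p = 0.00163), or 3.10-fold more without the replicate 1 arrays. Dnajb1 was 2.44-fold higher in CHX P/I than in CHX-treated unstimulated cells (adjusted p = 0.00286), a call lost without the replicate 2 arrays (log2 difference 1.07, adjusted p = 0.128). The effect of P/I in DMSO-treated cells was 0.23, with a 95% interval of -0.30 to 0.76 (adjusted p = 0.662). The difference between these P/I effects was 1.06 (SE 0.34, adjusted p = 0.0781). This interaction was called with all arrays but lost when any 1 of 9 arrays was left out (adjusted p = 0.108 to 0.176), and only without CHX P/I replicate 1, CHX-treated unstimulated replicate 3 or DMSO-treated unstimulated replicate 1 was it kept. With the 4 arrays of one replicate number left out it was 1.30 without replicate 1 (adjusted p = 0.00321), 0.85 without replicate 2 (0.498) and 1.03 without replicate 3 (0.299).
Dnaja1, a farnesylated J protein of the cytosol, differed in the same direction by smaller amounts. Its first probe set read 10.91, 10.93 and 11.09 in CHX P/I cells, 10.81, 10.33 and 10.39 in CHX-treated unstimulated cells, 10.65, 10.8 and 10.56 in DMSO P/I cells and 10.72, 10.26 and 10.31 in DMSO-treated unstimulated cells. The CHX P/I arrays were above all others for this probe set. Dnaja1 was 1.38-fold and 1.24-fold higher in CHX P/I than in CHX-treated unstimulated cells by its 2 probe sets (limma adjusted p = 0.05 and 0.0883). Neither was called without the replicate 2 arrays (0.301 and 0.426) or the replicate 3 arrays (0.494 and 0.48). For the first, the call was lost without CHX P/I replicate 3 (adjusted p = 0.172) or CHX-treated unstimulated replicate 2 (0.179) or 3 (0.166), and for the second without any 1 of 6 arrays, namely CHX P/I, and CHX-treated unstimulated, replicates 2 and 3, DMSO P/I replicate 3 and DMSO-treated unstimulated replicate 2 (adjusted p = 0.101 to 0.298). CHX P/I and DMSO P/I cells differed by 0.31 and 0.28 (adjusted p = 0.197 and 0.11), the second becoming a call without CHX P/I replicate 1, CHX-treated unstimulated replicate 1 or 2, or DMSO-treated unstimulated replicate 3 (adjusted p = 0.0927 to 0.0996). In DMSO-treated cells the P/I effect on Dnaja1 was 0.24 and 0.16 (adjusted p = 0.376 and 0.447), and the first was called without the replicate 1 arrays (0.40, adjusted p = 0.0232). Against DMSO-treated unstimulated cells, Dnaja1 was 1.46-fold and 1.36-fold higher in CHX P/I cells (adjusted p = 0.021 and 0.0152). Both calls were lost without the replicate 3 arrays (adjusted p = 0.337 and 0.367), and the first also without the replicate 2 arrays (0.195). Dnajb1 was 2.99-fold higher in CHX P/I than in DMSO-treated unstimulated cells (adjusted p = 0.000649).

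Hsp90aa1, the inducible cytosolic HSP90, had no called difference in the fit of group means to all arrays. Its first probe set read 12.77, 12.47 and 12.48 in CHX P/I cells, 13.09, 12.61 and 12.62 in CHX-treated unstimulated cells, 13.02, 12.66 and 12.73 in DMSO P/I cells and 13.04, 12.59 and 12.59 in DMSO-treated unstimulated cells. Replicate 1 was above the other arrays of its group throughout, and the groups overlapped. CHX P/I cells differed from DMSO P/I cells by -0.225, -0.23 and -0.20 for its 3 probe sets (limma adjusted p = 0.419 to 0.472). Without the 4 arrays of replicate 1, probe sets 1 and 3 were called lower (adjusted p = 0.0977 and 0.0844). In DMSO-treated cells the P/I effect on Hsp90aa1 was 0.01 to 0.09 on the log2 scale.
The mitochondrial pair Hspd1 and Hspe1, which share the run in the Hspe1 window printed above, had no called difference in the fit of group means to all arrays. The first Hspd1 probe set read 12.22, 11.64 and 11.54 in CHX P/I cells, 12.61, 11.89 and 12.05 in CHX-treated unstimulated cells, 12.36, 11.8 and 11.98 in DMSO P/I cells and 12.34, 11.89 and 11.94 in DMSO-treated unstimulated cells. For the first Hspe1 probe set the values were 10.77, 10.19 and 10.04 in CHX P/I cells, 11.1, 10.48 and 10.64 in CHX-treated unstimulated cells, 11.13, 10.15 and 10.32 in DMSO P/I cells, and 11.25, 10.53 and 10.56 in DMSO-treated unstimulated cells. Both genes were highest on replicate 1 in each group, and the groups overlapped. In that fit, the P/I effect in CHX-treated cells was -0.38 and -0.46 for Hspd1 and -0.41 and -0.47 for Hspe1 (limma adjusted p = 0.322 to 0.428). Without the 4 arrays of replicate 1 it was -0.38 and -0.435 for Hspd1 (adjusted p = 0.0216 and 0.0113) and -0.45 and -0.54 for Hspe1 (adjusted p = 0.0103 and 0.00997), so that all 4 probe sets were then called lower. The probe sets of one gene followed each other closely and do not count as separate results. Over all probe sets tested, lower calls in this comparison numbered 2719 with the replicate 1 arrays and 3574 without those arrays. CHX P/I cells differed from DMSO P/I cells by -0.25 and -0.31 for Hspd1 (adjusted p = 0.573 and 0.556), and by -0.30 and -0.335 without those arrays (adjusted p = 0.0528 and 0.0348). Against DMSO-treated unstimulated cells, CHX P/I cells were then also called lower for both Hspd1 probe sets (-0.32 and -0.365, adjusted p = 0.043 and 0.0257) and both of Hspe1 (-0.43 and -0.46, adjusted p = 0.0119 and 0.0214), and the interaction was called for the second Hspd1 probe set (-0.405, adjusted p = 0.0999). In DMSO-treated cells the P/I effect on Hspd1 was -0.01 and -0.02 and that on Hspe1 -0.245 and -0.26, none of them called in the fit of group means. The first Hspe1 probe set was called lower there without replicate 1 (-0.31, adjusted p = 0.0675).

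**Figure D3:**
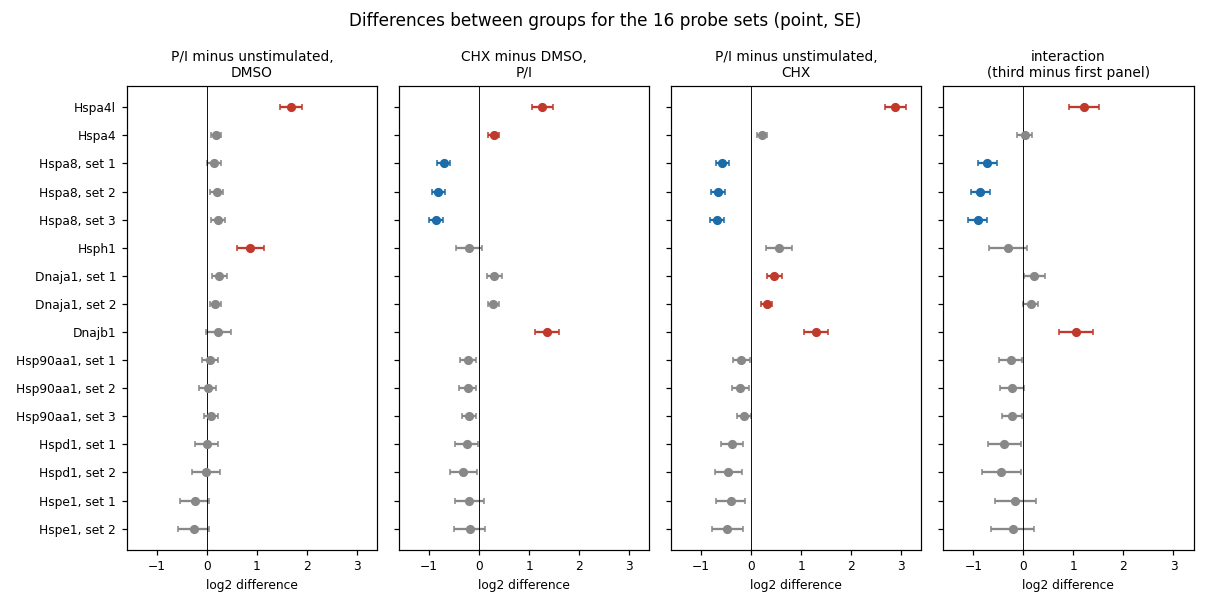
Log2 differences with their SE (limma) for the 16 probe sets in 4 comparisons, with probe sets of one gene numbered by their mean value. Red points were called higher, blue points lower and grey points were not called at an adjusted p under 0.1. Hspa4l reaches 2.88 for P/I in CHX-treated cells, and the 3 probe sets of Hspa8 lie between -0.58 and -0.69 there.

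Counted over the 16 probe sets, P/I in DMSO-treated cells gave 2 calls higher (Hspa4l and Hsph1) and 0 lower, with 0 lower also at an unadjusted p under 0.05 and without moderation of the variance. Of all probe sets tested in that comparison, 9.05% were called higher and 8.42% lower. CHX during P/I gave 3 calls higher (Hspa4l, Hspa4 and Dnajb1) and 3 lower, all of Hspa8, against 13.2% higher and 12% lower of all tested. Higher calls made up 52.4% of all calls in that comparison, and 63.1% after median centring of the arrays. P/I in CHX-treated cells gave 4 calls higher (Hspa4l, Dnajb1 and both of Dnaja1) and the 3 of Hspa8 lower, against 10.2% and 11.6% of all tested. The interaction was called higher for 2 probe sets (Hspa4l and Dnajb1) and lower for the 3 of Hspa8, against 6.04% and 7.62% of all tested. Of all interaction calls 44.2% were higher, and 56% once the deposited values were quantile normalized again. CHX P/I cells against DMSO-treated unstimulated cells gave 5 calls higher (Hspa4l, Hspa4, Dnajb1 and both of Dnaja1) and the 3 of Hspa8 lower, against 12% and 10.7%, and the share of higher calls was 52.9%, or 68.8% after median centring. CHX alone gave no call in unstimulated cells, where 0.0299% of all probe sets were called higher and 0% lower with limma. At an unadjusted p under 0.05 it gave 1 member probe set, Hspa4 (0.26 on the log2 scale, limma adjusted p = 0.702), and without moderation it gave 0. These comparisons share groups and so are not independent of each other.
With 1 probe set for each of the 9 genes, the median log2 effect of P/I was 0.19 in DMSO-treated cells, beside -0.03 over all probe sets tested, and 0.22 in CHX-treated cells, beside 0.02. The median effect of CHX was -0.2 during P/I, beside 0.01, and 0.09 in unstimulated cells, beside -0.02. The members thus did not move as one group, since Hspa4l and Dnajb1 were higher, and Hspa8 lower, in CHX P/I than in DMSO P/I cells. No direction named here for a called member reversed under any scaling tried.

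The profile of Hspa4l lay far from those of the other members by a distance that counts the size of a change as well as its shape. Group means spanned log2 2.94 for Hspa4l and 0.2 to 1.58 for the other members. Both probe sets of Dnaja1 had the same order of group means as Hspa4l. The nearest member, Dnajb1, lay at a root mean square distance of log2 0.855 over the 12 arrays, each gene centred on its own mean, and the farthest, Hspe1, at 1.52. Among 14832 probe sets whose mean over the arrays reached log2 5, the 5 nearest genes, passing over predicted genes and olfactory receptors, were Adamts6, a secreted protease (0.304), the receptor P2ry10b (0.337), the histone H3K27 demethylase Kdm6b (0.349), the TNF receptor adaptor Traf1 (0.35) and the vesicle fusion protein Stx11 (0.352). This likeness is a description, and these genes were picked for it. In DMSO-treated cells the fold change with P/I was 4.26 for Adamts6, 2.99 for P2ry10b, 3.98 for Kdm6b, 2.46 for Traf1 and 4.03 for Stx11. In CHX-treated cells it was 6.89 for Adamts6, 4.64 for P2ry10b, 6.33 for Kdm6b, 6.11 for Traf1 and 5.86 for Stx11. Traf1, for example, was at 8.55, 7.48 and 8.15 in CHX P/I cells, 5.44, 5.46 and 5.44 in CHX-treated unstimulated cells, 7.13, 6.51 and 6.44 in DMSO P/I cells and 5.33, 5.44 and 5.43 in DMSO-treated unstimulated cells. Its order of groups was that of Hspa4l, with both unstimulated groups together at the bottom.

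Among 10 measured relatives of the HSP70 and small HSP families, most showed no called difference. Of all probe sets tested, 9.05% were called higher and 8.42% lower with P/I in DMSO-treated cells, and 13.2% and 12% with CHX during P/I. Hspa1a, the strongly heat-inducible HSP70 whose near-identical copy Hspa1b was not analysed here, stayed between 5.7 and 6.23 on all 12 arrays and was not called in any comparison. Its mean was 5.98, near the array medians of 5.55 to 5.71. The means of Hspa1l, Hspa2, Hspb1, Hspb8, Cryab and Serpinh1 were 4.79 to 5.83, about or below that level. At so low a signal, the lack of a call does not show that the mRNA did not respond. Hspa13, a microsomal HSP70, was the 1 member of this list that rose with P/I in DMSO-treated cells (1.61-fold, limma adjusted p = 0.00643), and it was 1.67-fold lower in CHX P/I than in DMSO P/I cells (adjusted p = 0.00273). Hspa14, an HSP70 that binds ribosomes, was 1.45-fold higher in CHX P/I than in DMSO P/I cells (adjusted p = 0.00782) and 1.66-fold higher than in CHX-treated unstimulated cells (adjusted p = 0.00138). Of the list, 1 gene was called higher and 2 lower with CHX during P/I, the second being mitochondrial Hspa9 (log2 difference -0.23, adjusted p = 0.0611). The median P/I effect in DMSO-treated cells was 0.05.
Of 3 measured heat shock factors and regulators, Hsbp1, which binds the trimerized factor, was 1.51-fold higher with P/I in DMSO-treated cells (limma adjusted p = 0.00826) and 1.43-fold lower in CHX P/I than in DMSO P/I cells (adjusted p = 0.014), and the others had no call in these comparisons. Hsf1 was not analysed here.
The 14 cochaperones of HSP70 included several called genes. Dnajb4, another J protein of the Dnajb1 type, was at 9.83, 10.25 and 10.05 in CHX P/I cells, 9.2, 9.42 and 9.02 in CHX-treated unstimulated cells, 7.89, 7.51 and 7.14 in DMSO P/I cells, and 8.94, 9 and 8.45 in DMSO-treated unstimulated cells. The DMSO P/I arrays were the lowest and the CHX P/I arrays the highest, with no overlap. Dnajb4 was thus 2.43-fold lower with P/I in DMSO-treated cells (limma adjusted p = 0.00097), 1.77-fold higher in CHX P/I than in CHX-treated unstimulated cells (adjusted p = 0.0131), and 5.77-fold higher in CHX P/I than in DMSO P/I cells (adjusted p = 5.12e-06). The interaction for Dnajb4 was 2.11 (SE 0.28, adjusted p = 0.000724). Dnajb2, a J protein with ubiquitin-binding motifs, was 2.47-fold higher in CHX P/I than in DMSO P/I cells (adjusted p = 5.98e-05) and had no call with P/I in DMSO-treated cells. The nucleotide exchange factor Bag2, an inhibitor of the ubiquitin ligase CHIP, was 2.83-fold lower with P/I in DMSO-treated cells (adjusted p = 9.31e-06) and 2.04-fold lower in CHX-treated cells (adjusted p = 0.000161). Bag5 was 1.72-fold higher with P/I in DMSO-treated cells (adjusted p = 0.00153) and 1.55-fold lower in CHX P/I than in DMSO P/I cells (adjusted p = 0.00411). In all, 1 of the 14 was higher and 2 lower with P/I in DMSO-treated cells, against 9.05% and 8.42% of all probe sets tested. With CHX during P/I, 3 (Dnajb4, Dnajb2 and Bag2) were higher and 2 (Bag4 and Bag5) lower, against 13.2% and 12%.

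**Figure D4:**
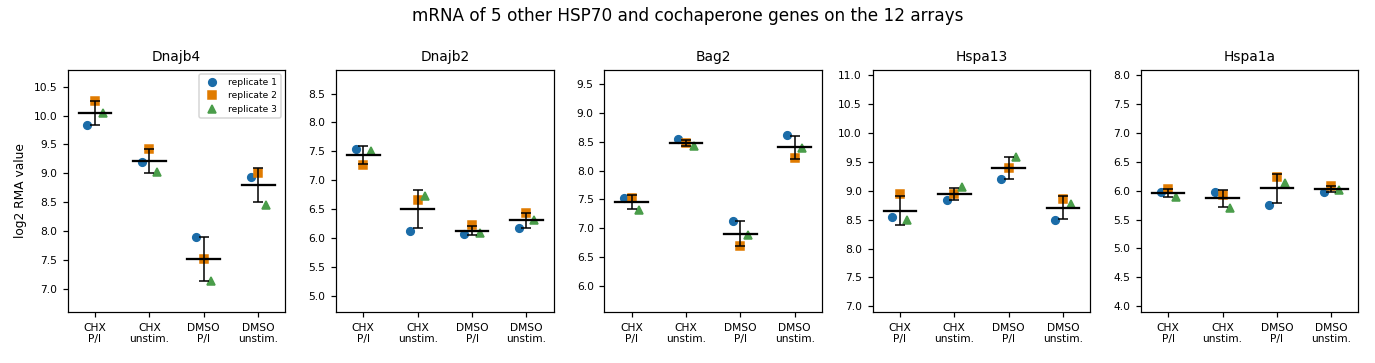
Log2 RMA values of Dnajb4, Dnajb2, Bag2, Hspa13 and Hspa1a on the 12 arrays, by group, with the group mean (bar) and 1 SD (whisker, n = 3). Dnajb4 is lowest in DMSO P/I cells (7.14 to 7.89) and highest in CHX P/I cells (9.83 to 10.25). Hspa1a stays between 5.7 and 6.23, near the array medians of 5.55 to 5.71.

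None of 13 cochaperones of HSP90 was called with P/I in DMSO-treated cells, where 9.05% of all probe sets tested were higher and 8.42% lower. With CHX during P/I, 2 were higher and 2 lower, against 13.2% and 12% of all tested. Fnip1, which slows the ATPase of HSP90, was 2.07-fold higher (limma adjusted p = 0.00847) and the myosin chaperone Unc45a 1.76-fold higher (adjusted p = 0.00321) in CHX P/I than in DMSO P/I cells, while Ahsa1, which stimulates that ATPase, was 1.97-fold lower (adjusted p = 0.0247). Ahsa1 read 10.58, 9.95 and 9.7 in CHX P/I cells and 11.23, 10.8 and 11.13 in DMSO P/I cells, and like Hsp90aa1 it was highest on replicate 1 in each of these groups.
Of 8 mitochondrial chaperones and proteases, 3 were lower with CHX during P/I and none higher, against 12% and 13.2% of all probe sets tested. Grpel2, a nucleotide exchange factor of mitochondrial HSP70, was 1.54-fold lower (limma adjusted p = 0.00535) and the J protein Dnaja3 1.38-fold lower (adjusted p = 0.0255) in CHX P/I than in DMSO P/I cells, and the third was Hspa9. With P/I in DMSO-treated cells, Dnaja3 was the only one of the 8 that was called (1.30-fold higher, adjusted p = 0.0899). Of all probe sets tested, 9.05% were called higher and 8.42% lower there. Of the 8 subunits of the cytosolic chaperonin TRiC, none was called with P/I, and Cct7 alone was called with CHX during P/I (1.35-fold lower, adjusted p = 0.0903). With P/I in CHX-treated cells, 10.2% of all probe sets tested were called higher and 11.6% lower. With so few genes, these counts are close to such shares.

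**Figure D5:**
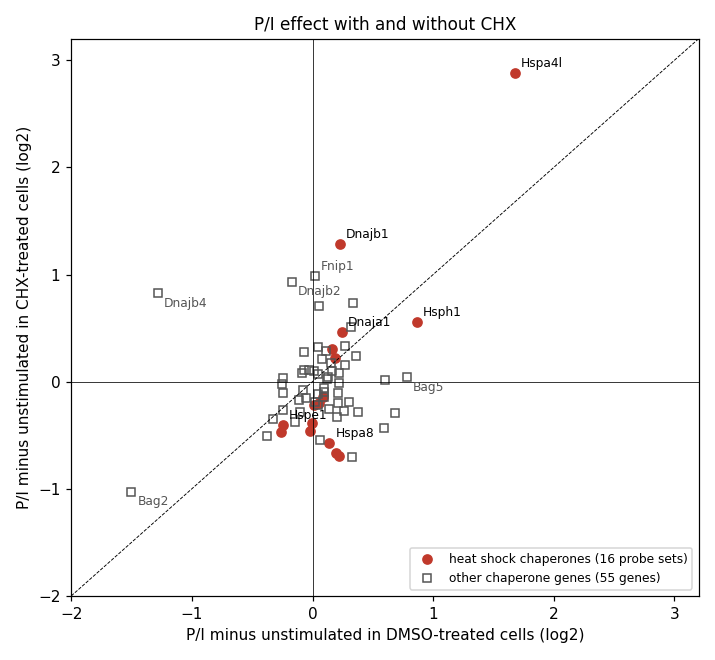
P/I effect in DMSO-treated cells (x axis, log2) against that in CHX-treated cells (y axis, log2) for the 16 chaperone probe sets and 55 other chaperone genes, with the line of equal effects dashed. Hspa4l and Dnajb1 lie above the line, the 3 probe sets of Hspa8 below it, and Dnajb4 has a negative effect without CHX and a positive one with it.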

How the data were processed

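Total RNA of the 12 EL-4 samples was hybridized to Affymetrix Mouse Gene 1.0ST arrays. The authors corrected the background for probe sequence, applied quantile normalization and summarized probes to log2 RMA values (Partek), and the deposited table holds these log2 values for 35399 probe sets. A single symbol belongs to 21789 of them, more than 1 to 1621 and no symbol to 11989. Quantile normalization equalizes the arrays, so a shift shared by all mRNA would not be seen. A mean per group was fitted to all arrays with limma 3.58.1 (R 4.3.3), with adjustment over the 23410 probe sets with a symbol. Fits had 8 residual and 3.63 prior degrees of freedom, and 3 arrays per group limit the precision. Scripts were tested on simulated data. Promoter windows came from RefSeq (GRCm38.p6) and were read with Python 3.11.15. Named genes were all members, up to 3 genes of smallest p per other list and comparison, and the 5 genes nearest to Hspa4l. The members and lists were chosen with earlier results of these data known. The alternatives comprised other scalings, filters, thresholds and variance models, the replicate number as a block, and leaving out arrays. A comparison of protein sequences was not run.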

Additional observations from a re-analysis of the deposited data

Results flagged for a closer look

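The effect of P/I differed with and without CHX for 3 members by the test of the interaction itself (limma, adjusted over all probe sets). Of all probe sets tested, that test called 6.04% higher and 7.62% lower. The difference with and without CHX cannot be told apart from that of a longer time with CHX in CHX P/I cells, should it have been longer. For Hspa4l the log2 interaction was 1.205 (adjusted p = 0.0263). For Dnajb1 it was 1.059 (adjusted p = 0.0781), a call lost without any 1 of 9 arrays. For the 3 probe sets of Hspa8 it was -0.716, -0.861 and -0.912 (adjusted p = 0.032, 0.014 and 0.0117). Without the replicate 3 arrays none of these was called, with an adjusted p = 0.31 for Hspa4l, 0.299 for Dnajb1 and 0.2 to 0.347 for Hspa8.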

How the results depend on the processing

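No called member result changed direction in any of 9 other settings or when arrays were left out in 15 ways, but 17 of 28 called results lost their call in at least 1 of these. The number of arrays limits which differences can be seen, and leaving out a replicate number leaves 2 arrays per group. At an adjusted p under 0.05, P/I in DMSO-treated cells raised 1 member probe set in place of 2 and the interaction was higher for 1 in place of 2. Without moderation of the variance these counts were 1 and 1, and P/I in CHX-treated cells raised 2 in place of 4. With all 35399 probe sets tested, the interaction was higher for 1. Calls over all probe sets moved as well. At an adjusted p under 0.05, 1702 in place of 2118 were higher with P/I in DMSO-treated cells, and 949 in place of 1413 for the interaction. Without moderation these were 1797 and 1085, and 2123 in place of 2389 for P/I in CHX-treated cells. With all 35399 tested, 1503 were higher for the interaction. With arrays left out, P/I in DMSO-treated cells gave 1 to 5 higher and 0 to 1 lower, CHX during P/I 2 to 4 higher and 3 to 7 lower, P/I in CHX-treated cells 1 to 6 higher and 2 to 7 lower, the interaction 0 to 2 higher and 0 to 4 lower, CHX P/I against DMSO alone 2 to 6 higher and 0 to 7 lower, and CHX in unstimulated cells 0 and 0. Calls over all probe sets tested ranged widely too, from 1003 to 2804 higher and 647 to 2959 lower for P/I in DMSO-treated cells. For CHX during P/I they were 1388 to 4032 and 1429 to 3560, and for P/I in CHX-treated cells 1097 to 3047 and 1076 to 3574. The interaction had 234 to 2260 and 465 to 2406, and CHX P/I against DMSO alone 1415 to 3651 and 953 to 3480. In each, the fewest came without replicate 3 and the most without replicate 1. Without the replicate 3 arrays the interaction of Hspa4l (1.162) had an adjusted p = 0.31 and those of Hspa8 0.2 to 0.347. With the shorter motif of 2 units, found in 7.86% of all windows, 4 member genes in place of 3 had a match, Dnaja1 being added.

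The replicate numbers were not shown to pair the samples. Deviations of same-numbered arrays of different groups correlated at 0.0644 to 0.75, over 0.1 in 17 of 18 pairs. Those of differently numbered arrays correlated at -0.581 to 0.309. On average over the arrays of each number in the other groups, 11 of 12 arrays correlated best with their own number, a hint from the data and not from the design. With the replicate number as a block, lower calls numbered 1 in place of 0 for P/I in DMSO-treated cells, 8 in place of 3 for CHX during P/I, 9 in place of 3 for P/I in CHX-treated cells, 5 in place of 3 for the interaction and 8 in place of 3 for CHX P/I against DMSO alone. Over all probe sets tested, lower calls rose with the block too. In the same order they were 3026 in place of 1970, 3744 in place of 2818, 3958 in place of 2719, 2851 in place of 1783 and 3708 in place of 2494. The lower calls added during P/I with CHX were the 3 probe sets of Hsp90aa1 and the 2 of Hspd1 (adjusted p = 0.0141 to 0.052). With the block, P/I in CHX-treated cells was lower for both probe sets of Hspd1 (adjusted p = 0.00516 and 0.00168) and of Hspe1 (0.00705 and 0.00619) and for 2 of Hsp90aa1 (0.0694 and 0.0579), and higher for Hsph1 (0.0187) and Hspa4 (0.0723). CHX P/I against DMSO alone was lower for both probe sets of Hspd1 (0.042 and 0.0114) and of Hspe1 (0.00401 and 0.00794) and for 1 of Hsp90aa1 (0.0565), and higher for Hsph1 (0.00688). The interaction was lower for both of Hspd1 (0.049 and 0.0239), and P/I in DMSO-treated cells was lower for 1 of Hspe1 (0.0926).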
